A study of Rattus norvegicus with 6 samples.

Results

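The arms of miR-143 and miR-145 were examined in small RNA sequencing of rat primary sertoli cells, the somatic cells that support germ cells in the seminiferous tubule. Every mature miRNA row of the deposited table was taken whose name, once a final -3p or -5p was removed, was rno-miR-143 or rno-miR-145. This gave 4 rows of 734 mature miRNA rows, namely miR-143-3p, miR-143-5p, miR-145-3p and miR-145-5p. There were 3 control samples, cultured without 4-NP (0 mM), and 3 samples treated with 0.5 mM 4-NP (4-nonylphenol, an alkylphenol with estrogen-like action), all collected at 24 h. The cells came from the testes of young Sprague-Dawley pups, were enriched by enzyme digestion and centrifugation, and were passaged in medium with fetal bovine serum before treatment. The labels do not say whether the samples came from separate animals or cultures, so each p-value measures the spread between these samples, which may be technical.

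A miRNA hairpin is cut into a duplex, and each strand of the duplex, called an arm, can enter an Argonaute protein, where bases 2 to 8 of the arm (the seed) pair with target mRNAs. Usually one arm, the guide, is kept and the other, the passenger, is degraded. The hairpins of miR-143 and miR-145 are made from a common primary transcript. Both are known for their abundance in smooth muscle cells, fibroblasts and other mesenchymal cells, where serum response factor and myocardin drive them and where they favour the contractile state by repressing factors such as KLF4 and ELK1. In the testis, peritubular myoid cells are the smooth muscle-like cells around the tubule. In the RefSeq gene table of the GRCr8 assembly, Mir145 and Mir143 were neighbouring genes and both lay within the span of Carmn, a long non-coding RNA gene.

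The mature sequences are shown because the arms of miR-145 behaved differently after 4-NP and because each arm has its own seed. They are from RefSeq (GRCr8, minus strand), in which all 4 names were matched, and are written 5′ to 3′ with the seed in capitals.
miR-143-3p: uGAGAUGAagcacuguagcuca
miR-143-5p: gGUGCAGUgcugcaucucugg
miR-145-5p: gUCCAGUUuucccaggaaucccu
miR-145-3p: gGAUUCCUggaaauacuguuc
The 4 seeds differed from each other, and 0 other mature miRNAs of the RefSeq table had any of them. The longest run shared by any pair of the arms was 5 bases, between miR-143-3p and miR-145-3p, and 0 other counted miRNAs with a RefSeq sequence shared a run of 14 bases with any of them. Of the 673 known mature rows, 606 had such a sequence.

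The 6 samples had 20023200 to 23426742 reads on mature miRNAs, and levels are given as CPM (counts scaled to the same sum of mature reads), without correction for length or for ligation bias. A count of 0 allows up to 3 reads, or 0.150 CPM in the sample with the fewest reads. All arms were well above this limit in every sample. The most abundant miRNA, miR-21-5p, took 62.0 to 63.9% of the mature reads. Molecules were not counted, so intervals from reads cover counting error only. Differences between the groups were tested with the quasi-likelihood F test of edgeR (two-sided), scaled by the TMM method and adjusted by the Benjamini-Hochberg method over 549 miRNAs with enough reads, among which were all 4 arms. At an adjusted p under 0.05, 12.8% of the 549 were lower and 7.47% were higher after 4-NP. In bulk samples such as these, fewer cells of a type and less RNA per cell cannot be told apart.

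miR-143-3p, the guide arm of miR-143, was the second most abundant miRNA in each of the 6 samples. It had 133846, 117869 and 120190 CPM in control samples 1, 2 and 3, and 86726, 94741 and 86863 CPM in 4-NP samples 1, 2 and 3. All 3 treated samples were below all 3 controls, as were those of 22.6% of the tested miRNAs. The mean fell from 12.4% ± 0.863 to 8.94% ± 0.459 of the mature reads (SD, n = 3 each). The log2 fold change was -0.50 with an SE (standard error) of 0.10 and an adjusted p = 0.0177 in the edgeR test, which is 0.709 of the control level. In CPM, the fall of the mean was larger than the whole mean level of the third most abundant miRNA, miR-22-3p, which was 20465 CPM over the 6 samples. With the reads of miR-21-5p set aside, miR-143-3p made up 31.2 to 35.3% of the remaining mature reads in the controls and 23.5 to 26.1% after 4-NP.

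miR-143-5p, the passenger arm, was scarce. It had 427, 389 and 288 reads in the controls (18.2, 16.8 and 12.9 CPM) and 286, 162 and 215 reads after 4-NP (12.9, 8.09 and 9.82 CPM). The groups met at the level of control sample 3 and 4-NP sample 1. The log2 fold change was -0.66 (SE 0.21, 95% interval -1.17 to -0.15), and it did not pass the adjusted threshold (adjusted p = 0.0749 in edgeR). In 4-NP sample 3 the 95% Wilson interval from its reads was 8.59 to 11.2 CPM.

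miR-145-5p, the guide arm of miR-145, is the arm through which most described targets of this hairpin are repressed. It had 2359, 2649 and 1947 CPM in the controls and 2189, 1933 and 1504 CPM after 4-NP, so the groups overlapped. It stood between places 24 and 30 among the mature miRNAs in the controls and between places 29 and 36 after 4-NP. The log2 fold change of -0.33 (SE 0.14, 95% interval -0.67 to 0.02) did not pass the threshold (adjusted p = 0.159 in edgeR). The interval includes no change, but also a fall as large as that of miR-143-3p.

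miR-145-3p, the passenger arm of miR-145, had the largest change of the 4 arms. It had 1174, 1406 and 1064 reads in the controls, or 50.1, 60.9 and 47.7 CPM. After 4-NP it had 363, 307 and 259 reads, or 16.4, 15.3 and 11.8 CPM. The highest treated sample was well below the lowest control. The mean fell from 52.9 ± 7.00 to 14.5 ± 2.39 CPM (SD, n = 3 each). On the log2 scale this was a change of -1.88 (SE 0.14, adjusted p = 0.000278 by edgeR). It was the only one of the 4 arms past the study's own limits of a fold change under 0.5 and p under 0.05, which 9.84% of the 549 miRNAs passed in this direction. By p-value it was in place 9 of the 549.

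**Figure D1:**
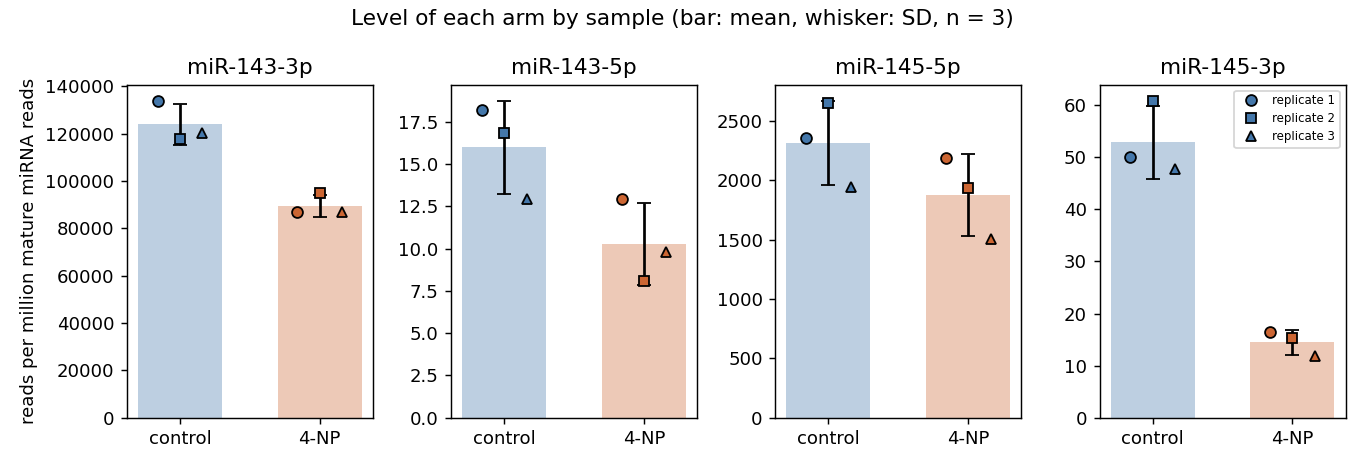
Level of each arm in CPM (vertical axes, from 0) in the 3 control and 3 4-NP samples, with points for samples, bars for means and whiskers for the SD. The treated samples lie apart from the controls for miR-143-3p (86726 to 94741 against 117869 to 133846) and for miR-145-3p (11.8 to 16.4 against 47.7 to 60.9), and the groups overlap for miR-143-5p and miR-145-5p.

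Of the 4 arms, therefore, 2 fell at an adjusted p under 0.05 and 0 rose, beside 12.8% of all tested miRNAs that fell. The median log2 fold change of the 4 was -0.58, against -0.02 over all 549. In the controls the arms were ordered miR-143-3p, miR-145-5p, miR-145-3p and miR-143-5p, and neighbours in this order did not overlap in any control sample. After 4-NP, miR-145-3p (11.8 to 16.4 CPM) and miR-143-5p (8.09 to 12.9 CPM) overlapped. The spread between replicates was smallest for miR-143-3p, with a coefficient of variation of 6.96% in the controls and 5.13% after 4-NP. For the other arms it was 13.2 to 17.2% in the controls and 16.5 to 23.8% after 4-NP, beside medians of 13.2% and 12.7% over the 290 tested miRNAs with a mean of at least 10 CPM.

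**Figure D2:**
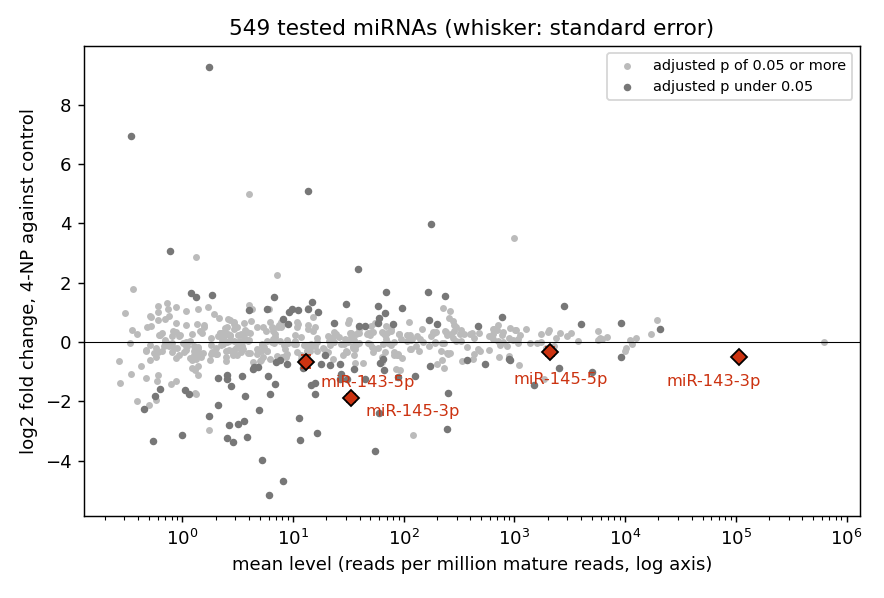
Log2 fold change of the 549 tested miRNAs (vertical axis, 4-NP against control) by their mean level in CPM (horizontal log axis). Diamonds are the 4 arms with their standard errors. miR-143-3p lies far to the right at -0.50, miR-145-3p at -1.88 has the 37th largest absolute change, and all 4 arms are below 0.

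The ratio of both arms of a hairpin is taken within a sample and does not depend on the scaling between samples. For miR-145 there were 47.1, 43.5 and 40.8 reads of the 5p arm for each read of the 3p arm in control samples 1, 2 and 3. In 4-NP samples 1, 2 and 3 there were 133, 126 and 127. The 3 values of each group lay close together and the groups were far apart. In other terms, miR-145-3p made up 2.24% ± 0.156 of the reads of both arms in the controls and 0.770% ± 0.0233 after 4-NP (SD, n = 3 each). The log2 ratio of the 5p to the 3p arm rose from 5.45 ± 0.10 to 7.00 ± 0.04 (SD, n = 3 each). The change was 1.56 (SE 0.14, 95% interval 1.21 to 1.90, adjusted p = 0.000979 in limma over 156 hairpins with both arms tested). An exact two-sided permutation test of the 6 samples gave p = 0.1, which is the lowest value the design can reach.

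Such a change was uncommon among the hairpins. The ratio changed at an adjusted p under 0.05 in limma for 10 of the 156, or 6.41%, and the groups did not overlap for 31.4%. miR-145 was in place 4 by p-value and in place 10 by the size of the change. The hairpins with smaller p-values were miR-154, with a change of 2.19, miR-23b with -2.50 and miR-471 with -1.88 on the log2 scale of the 5p to 3p ratio. For miR-145 the change favoured the 5p arm, which already prevailed in the controls.

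For miR-143 the arm that prevailed was the 3p arm, by a wide margin. There were 7343, 6999 and 9303 reads of miR-143-3p for each read of miR-143-5p in the controls, and 6711, 11710 and 8846 after 4-NP. The treated samples spanned the whole range of the controls. The log2 ratio of the 5p to the 3p arm was -12.93 ± 0.22 in the controls and -13.11 ± 0.40 after 4-NP (SD, n = 3 each). The difference of -0.18 had a standard error of 0.25 and a 95% interval of -0.78 to 0.43 (adjusted p = 0.815 in limma, exact permutation p = 0.7). Its sign turned, to a difference of 0.023, without 4-NP sample 2. In the controls the imbalance of miR-143 was the second largest of the 156 hairpins, after miR-26a, whereas miR-145 was in place 56.

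**Figure D3:**
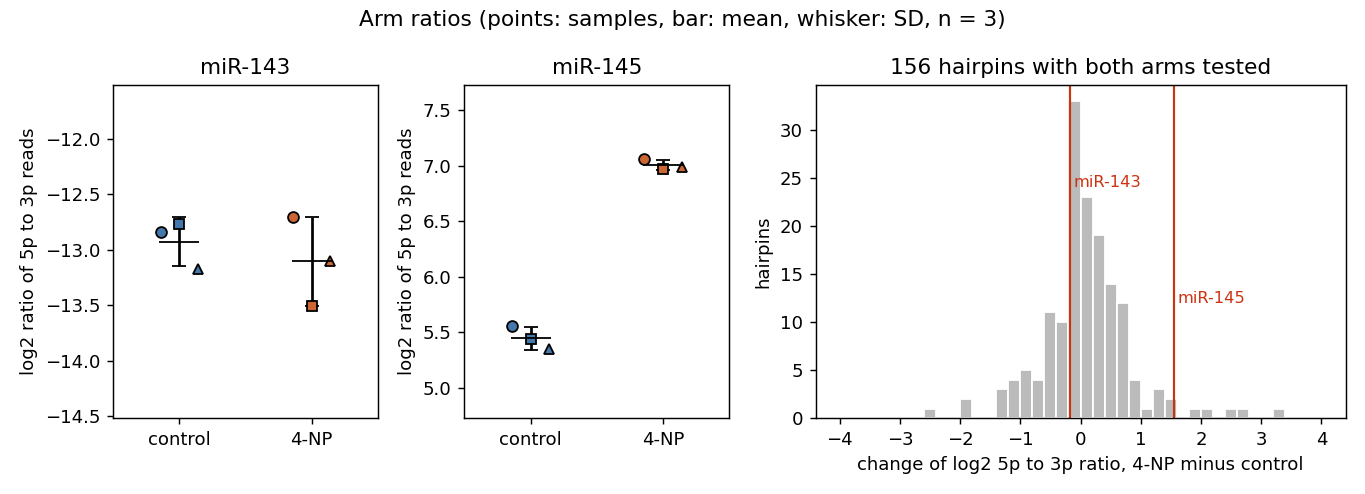
The left and middle panels give the log2 ratio of 5p to 3p reads of miR-143 and miR-145 in each sample (points), with the mean (bar) and SD (whisker) of 3 samples, on axes of equal length that do not start at 0. The right panel counts the 156 hairpins by the change of this ratio (4-NP minus control). miR-145 stands at 1.56 in the right tail and miR-143 at -0.18 near the middle.

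The arms also differ in their first base, which is U in miR-143-3p and G in the other 3 arms. Of the 136 hairpins with both sequences in RefSeq, the arm that prevailed in the controls began with U in 53.7% and with G in 5.9%. miR-143 belonged to the former and miR-145, which has a G at the start of both arms, to the latter.

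The guide arms of the 2 hairpins were compared with each other, as they derive from one primary transcript. There were 56.7, 44.5 and 61.7 reads of miR-143-3p for each read of miR-145-5p in the controls and 39.6, 49.0 and 57.7 after 4-NP. The groups overlapped. The log2 ratio of miR-145-5p to miR-143-3p was -5.75 ± 0.25 in the controls and -5.59 ± 0.27 after 4-NP (SD, n = 3 each), a difference of 0.16 (exact two-sided permutation test, p = 0.6). Without 1 sample the difference ran from 0.017, without 4-NP sample 1, to 0.30, without control sample 2.

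The table also has a precursor row for each hairpin, which the authors named microRNA mir-143 and microRNA mir-145. How reads were divided between these rows and the mature rows is not given in the sources used here, and the rows were examined after the values of the mature arms were seen. On the scale of the mature reads, the mir-143 row had 17176, 16148 and 14591 CPM in the controls and 11281, 11221 and 10145 CPM after 4-NP. Like miR-143-3p, it was lower in all 3 treated samples than in any control (log2 ratio of the means -0.55, exact permutation p = 0.1, the lowest possible). The mir-145 row had 351, 371 and 297 CPM in the controls and 475, 439 and 370 CPM after 4-NP. It was thus not lower, and its groups just overlapped (log2 ratio of the means 0.33, exact permutation p = 0.2). Relative to the mature reads of its own hairpin, the mir-145 row came to 13.7 to 14.9% in the controls and 21.5 to 24.4% after 4-NP. These did not overlap (exact permutation p = 0.1, the lowest possible). For mir-143 the corresponding values were 12.1 to 13.7% and 11.7 to 13.0%, which overlapped (exact permutation p = 0.3). How many other precursor rows had groups without overlap was not examined, so how unusual such a separation is remains unknown.

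**Figure D4:**
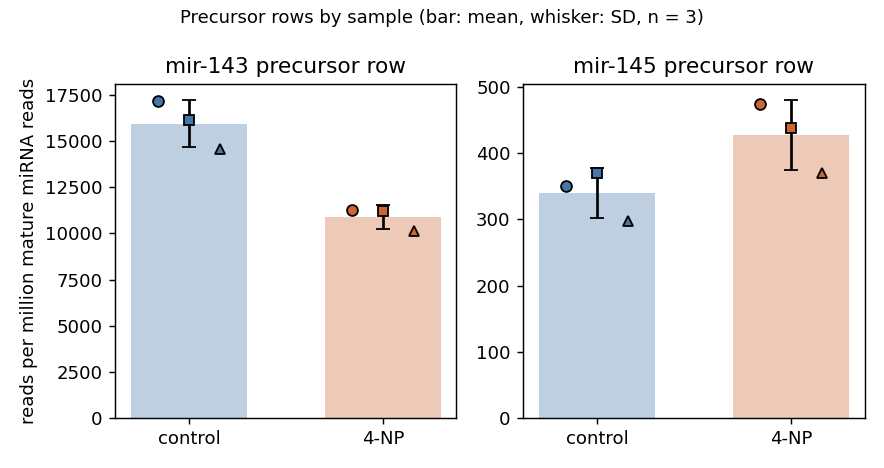
Reads of the mir-143 and mir-145 precursor rows in CPM of the mature reads (vertical axes, from 0) in the 3 control and 3 4-NP samples, with points for samples, bars for means and whiskers for the SD. The mir-143 row is lower in each treated sample, whereas for mir-145 the treated samples (370 to 475) overlap the controls (297 to 371) at their lower end.

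Other miRNAs of muscle and mesenchymal cells did not move as one group. Of the striated muscle miRNAs (miR-1, miR-133, miR-206, miR-208 and miR-499), 5 of 11 rows had enough reads to be tested and 0 passed, with log2 fold changes of -0.29 to 0.30. The most abundant of them, miR-499-5p, had 603 to 788 CPM in the controls and 667 to 759 CPM after 4-NP. The rows of miR-133a-3p and miR-133c, which have nearly the same sequence, could have shared reads. Of the 8 mesenchymal rows, 3 fell and 2 rose, beside 12.8% and 7.47% of all tested miRNAs. The falls were those of miR-199a-5p (log2 fold change -0.86, SE 0.10, adjusted p = 0.00154 by edgeR), miR-214-3p (-0.74) and miR-214-5p (-1.76), from 2 hairpins of a common transcript that is active in mesenchymal cells. miR-22-3p, the most abundant of the list, and miR-22-5p rose, with log2 fold changes of 0.44 and 0.53. The call of miR-214-3p was lost without control sample 2 or 3 or 4-NP sample 1 or 2 (adjusted p of at most 0.0988 in edgeR). That of miR-22-3p was lost without control sample 2 or 3 or 4-NP sample 1 (at most 0.0745), and that of miR-22-5p without control sample 1 or 2 or 4-NP sample 1 or 3 (at most 0.091). miR-199a also was among the 10 hairpins whose arm ratio changed. The level of its 3p arm had a log2 fold change of -0.08 (adjusted p = 0.635 in edgeR).

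The p53-linked miRNAs are of interest because p53 aids the processing of miR-143, miR-145 and miR-16 and induces transcription of the miR-34 genes. The list counted here leaves out miR-143 and miR-145 themselves. Of its 12 tested rows, 8 rose, beside 7.47% of the 549 tested miRNAs, and 0 fell. The median log2 fold change of the 12 was 0.98, against -0.02 over all 549. Those that rose were miR-34a-5p, miR-34a-3p, both arms of miR-34b and of miR-34c, miR-192-5p and miR-194-5p. Both arms of a hairpin are not independent, so the 8 rows stand for fewer separate hairpins. Below 0, without passing, were miR-107-3p and miR-107-5p (log2 fold change -0.52 each) and miR-215 (-0.03). The call of miR-194-5p was lost without control sample 3 or 4-NP sample 3 (adjusted p of at most 0.059 in edgeR). That of miR-34c-5p was lost without control sample 2 or any single 4-NP sample (at most 0.081). The most abundant, miR-34a-5p, had 6820 to 7385 CPM in the controls and 10794 to 11871 CPM after 4-NP (log2 fold change 0.65, SE 0.08, adjusted p = 0.00232 by edgeR). miR-16-5p, which shares the described processing step with miR-143 and miR-145, had a log2 fold change of 0.37 whose call depended on the settings. It did not pass with TMM scaling (adjusted p = 0.0977 in edgeR), whereas it passed in DESeq2 (adjusted p = 0.0442). In edgeR it passed with scaling to the total mature counts (0.0199), to all small RNA counts (0.0218) and with TMM factors computed without miR-21-5p (0.0412). The call failed in edgeR with RLE scaling (adjusted p = 0.0615), without a filter on low counts (0.0748) and with at least 10 counts in every sample (0.0842). It also failed with a replicate block (0.132) and without any single sample (0.062 to 0.204). The part of p53 in the levels of miR-143 and miR-145 was not tested.

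**Figure D5:**
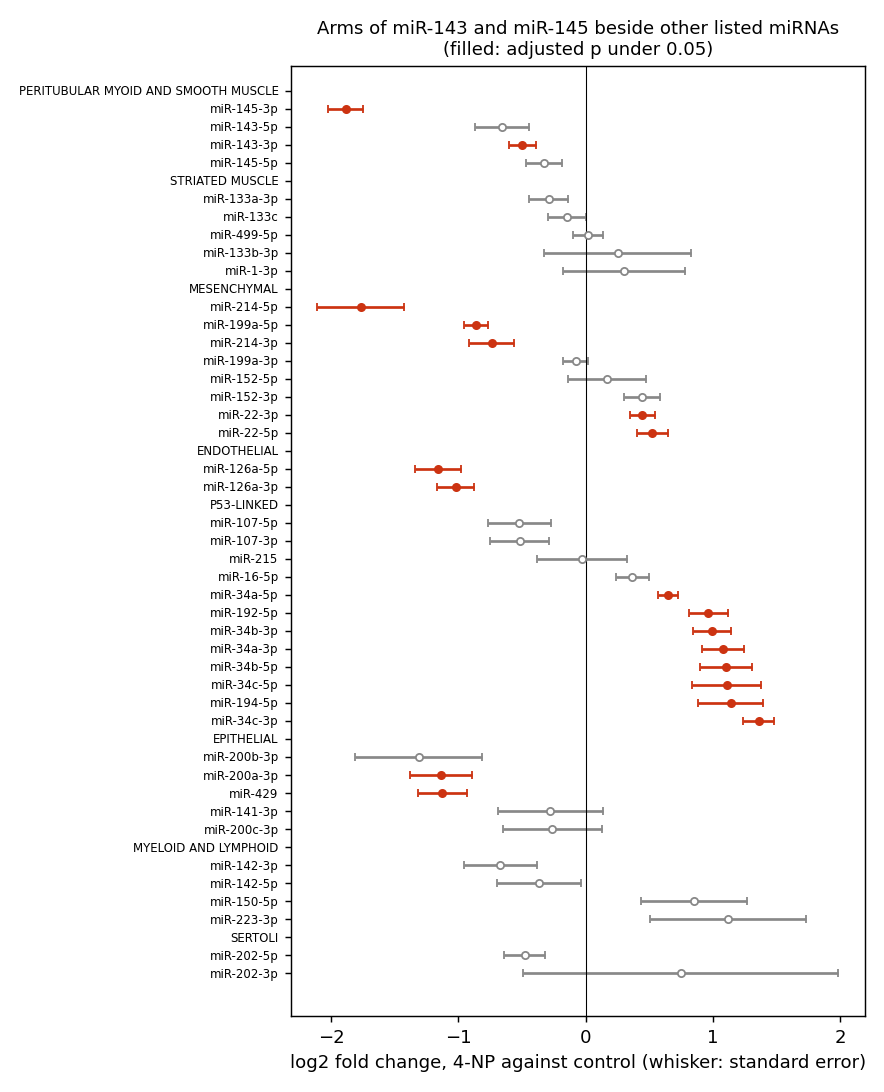
Log2 fold change (horizontal axis, 4-NP against control) with its standard error for each tested miRNA of 8 lists, filled where the adjusted p was under 0.05. All 4 arms of miR-143 and miR-145 are to the left of 0, the 5 striated muscle miRNAs lie around 0, and 8 of the 12 p53-linked miRNAs are filled and to the right.

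Lists of miRNAs linked to other cell types also had rows that differed between the groups. Whether these rows came from such cells here was not tested. Over all 549 tested miRNAs, 12.8% fell and 7.47% rose at an adjusted p under 0.05 in edgeR. The endothelial miRNA miR-126a fell in both arms, and miR-126a-3p went from 6126 to 7459 CPM in the controls to 3148 to 3724 CPM after 4-NP (log2 fold change -1.02, SE 0.15, adjusted p = 0.00419 by edgeR). Summed, the 3 endothelial rows had 6325 to 7615 CPM in the controls and 3234 to 3805 CPM after 4-NP. Of 5 tested epithelial miRNAs 2 fell (miR-200a-3p, whose call was lost without control sample 1 or 2 or 4-NP sample 2 or 3, and miR-429), at a summed level of the list of 10.7 to 13.0 CPM in the controls and 6.34 to 7.05 CPM after 4-NP. Of 13 tested rows of the germ cell list, 4 rose and 6 fell. Those that rose were the arms of miR-34b and miR-34c, which are also counted in the p53-linked list. Those that fell were miR-741-3p, the most abundant, miR-743a-5p, both arms of miR-871, miR-880-3p and miR-883-5p. The sum of the list was 652 to 789 CPM in the controls and 237 to 271 CPM after 4-NP. The call of miR-871-3p was lost without control sample 1 or 3 or 4-NP sample 1 or 2 (adjusted p of at most 0.109 in edgeR). Of 2 tested erythroid rows, miR-451-5p rose, and the sum was 11.0 to 40.7 CPM in the controls and 59.3 to 631 CPM after 4-NP. The call of miR-451-5p was lost without control sample 1 or 2 or 4-NP sample 2 or 3 (adjusted p of at most 0.123 in edgeR), and its 4-NP samples 1, 2 and 3 had 58.7, 305 and 628 CPM. Of the 4 tested myeloid and lymphoid rows 0 passed, with sums of 18.2 to 22.4 and 17.3 to 36.9 CPM, and miR-150-5p was the most abundant of them. miR-202-5p, from a gonadal miRNA expressed by sertoli cells, had 805 to 1195 CPM in the controls and 698 to 792 CPM after 4-NP (log2 fold change -0.48, adjusted p = 0.0858 in edgeR). Each listed row had reads in at least 1 sample. The part of these differences in the levels of miR-143 and miR-145 was not tested.

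The miRNAs with the pattern most like that of each guide were sought among 286 other miRNAs with a mean of at least 10 CPM, by Pearson's r of log2(CPM + 1) over the 6 samples. These values describe the likeness only, as the 6 samples include the difference between the groups and share their libraries. For miR-143-3p the closest were miR-322-5p (r = 0.976), miR-126a-3p (r = 0.957) and miR-471-5p (r = 0.956), each of which fell at an adjusted p under 0.05 in edgeR. Their log2 fold changes of -1.45, -1.02 and -3.32 were larger than the -0.50 of miR-143-3p, and miR-471-5p had a mean of only 2.16 CPM after 4-NP. For miR-145-5p the closest were miR-345-5p (r = 0.977), miR-676 (r = 0.949) and miR-191a-3p (r = 0.948). Their log2 fold changes of -0.11, -0.31 and -0.62 did not pass. Between the members themselves, r was 0.936 for miR-143-3p with miR-145-3p and 0.597 for miR-143-3p with miR-145-5p, so the guide of miR-143 was more like the passenger of miR-145 than like its guide.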

How the data were processed

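Small RNA of rat primary sertoli cells, 3 control and 3 4-NP samples, was sequenced from size-selected libraries whose adapters carried molecular identifiers. The authors deposited 1 table of read counts per small RNA without normalization. The submitters' processing notes name HISAT2 and DESeq2 and the paper names edgeR, without versions. The genome build, the miRNA database and the assignment rule are not given in the sources used here. The deposited columns named for molecular identifiers hold 1 for each known mature miRNA with reads, are not numbers of molecules and were not used. Rows that name no gene (exon, intron, intergenic and repeat totals, 3.52 to 5.91% of counted reads) were left out. Groups were taken from the sample labels, and treated columns were matched to samples by number. The dose was taken from the paper.

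CPM were computed over the sum of mature counts (20023200 to 23426742 reads). Counts were tested in R 4.3.3 with edgeR 4.0.16 (TMM, filterByExpr, no replicate block). Arm ratios, log2((5p + 1)/(3p + 1)), were tested with limma 3.58.1, with the level of the weaker arm as trend covariate. Alternatives were DESeq2 1.42.0, other scalings, filters and pseudocounts, a replicate block and the omission of each sample. Scaling to all small RNA counts was added after the values were seen. Text names the members, each called and the most abundant miRNA of each list, and the 3 miRNAs most like each guide. The members and lists were chosen with earlier results of these data known.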

Additional observations from a re-analysis of the deposited data

How the results depend on the processing

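The fall of miR-145-3p and the change of the miR-145 arm ratio kept their direction and an adjusted p under 0.05 under all alternatives run, 14 and 11 in number, with log2 values of -1.95 to -1.77 and of 1.51 to 1.61. miR-143-3p ran from -0.59 to -0.40 without each sample in turn, with an adjusted p of at most 0.0445 in edgeR. miR-143-5p ran from -0.81 to -0.43 and miR-145-5p from -0.43 to -0.21. With at least 10 counts in every sample, miR-143-5p passed (-0.70, adjusted p = 0.048 in edgeR). For the miR-143 arm ratio the range was -0.38 to 0.023, the latter without 4-NP replicate 2. Without 1 sample 5 to 9 hairpins were called, the fewest without control replicates 3 (5) and 1 (6). The other listed miRNAs called higher were then 7 to 11, with 7 without control replicate 2 or 4-NP replicate 3, and those called lower 11 to 13. Of the 24 called in the lists, 16 kept their call under each alternative. The other 8 were miR-194-5p, miR-200a-3p, miR-214-3p, miR-22-3p, miR-22-5p, miR-34c-5p, miR-451-5p and miR-871-3p, whose adjusted p in edgeR rose to 0.0731 to 0.123 at the most. The scalings moved the median of all miRNAs by less than 0.1. The causes of these changes were not tested.

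The labels do not say whether samples with the same replicate number were paired. Same-numbered deviations from the group means correlated at -0.30, -0.27 and -0.02, and not every sample correlated best with its own number. With 3 samples per group, whose deviations sum to 0, these values cannot decide whether the samples were paired. With a replicate block, miR-143-3p had a log2 fold change of -0.49 (adjusted p = 0.0699 in edgeR), so 1 of the 4 arms was called lower, and 26 of the tested miRNAs were called higher against 41. The block changed no other call of the 4 arms or of both arm ratios. The passenger arms had 162 to 1406 reads per sample, so their counting error is larger than that of the guides.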
